A study of Homo sapiens with 60 samples.

Results

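HCC827 is a lung adenocarcinoma cell line that carries an activating mutation of EGFR, the receptor tyrosine kinase through which epidermal growth factor and its relatives drive cell growth. The comparison described here set the 3 untreated HCC827 libraries, of 60 in the series, against the mean of the 3 group means of the other EGFR-mutant non-small cell lung cancer (NSCLC) lines PC9, H1975 (NCI-H1975) and HCC2935, with 3 libraries each. Members were chosen by label alone, and the 12 libraries were all DMSO controls. Cells of each line had been cultured for 21 days without drug and then given the vehicle DMSO for 24 h, so that all 4 groups shared that handling and none had received osimertinib, a third-generation EGFR inhibitor. The other 48 libraries came from the same lines under 500 nM osimertinib for 24 h (acute arm), for 21 days (drug-tolerant persisters, DTPs), or after 21 days of drug and a washout. The washout lasted 24 h in the short arm and, in HCC827, 96 h in the long arm. The long washout was shorter in H1975 and longer in PC9 and HCC2935. Each group is 1 cell line from biological triplicate cultures, so a difference between lines is a difference between 4 cell lines and not between classes of tumour.

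EGFR signals as a dimer with itself or with its relatives ERBB2 and ERBB3. It is switched on by ligands such as amphiregulin, epiregulin and betacellulin, and its signal runs through RAS and ERK to feedback genes such as the DUSP and SPRY families. EGFR-mutant lung cancer usually takes the form of an adenocarcinoma with features of the distal airway or alveolus, and MET, a second receptor tyrosine kinase, is a well known route around EGFR inhibition.

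The HCC827 libraries held 19.7 to 22.5 M estimated counts, against 36.9 to 47.1 M in PC9, 42.4 to 47.5 M in H1975 and 20.4 to 24.0 M in HCC2935. Line and depth therefore went together for PC9 and H1975. The log2 levels of the HCC827 libraries correlated across genes at 0.985 to 0.992 with each other, at 0.892 to 0.910 with H1975, at 0.866 to 0.881 with PC9 and at 0.858 to 0.863 with HCC2935, and each of the 12 libraries was closest to a library of its own line. Levels are given below in CPM (estimated counts scaled to a common library size with TMM), which compare 1 gene between lines. TPM (also corrected for transcript length) are given where a gene is ranked among all genes of a library. Where CPM of several genes are listed together, they do not rank those genes against each other. In bulk RNA of this kind, fewer cells that express a gene and less of its RNA per cell cannot be told apart.

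Of 15214 genes tested with edgeR's quasi-likelihood test, 4894 (32.2%) were higher in HCC827 than the mean of the other lines at an adjusted p under 0.05 and 4269 (28.1%) were lower. The stricter reading used throughout asks whether HCC827 differed from each line in the same direction. By that rule 1509 genes (9.92%) were above each other line and 1382 (9.08%) were below each, with 564 and 516 of them at least 2-fold apart from every line. These shares, and the 32.2% and 28.1% against the mean, are the background for the counts in gene lists below. HCC827 was not the most distinct line. The same counts were 2127 and 2042 for PC9, 1476 and 1365 for H1975, and 2397 and 2409 for HCC2935. Against single lines, the shares of genes higher and lower in HCC827 were 32.4% and 31.5% for PC9, 28.6% and 28.7% for H1975, and 33.2% and 33.2% for HCC2935. The median log2 difference over all genes tested was 0.02.

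EGFR itself stood far above the other lines. The gene lies on the plus strand of chromosome 7 (GRCh38, chr7:55019021-55211628). Its level was 8535, 9884 and 7536 CPM in the HCC827 libraries, 1813, 1764 and 1978 in PC9, 374, 396 and 407 in H1975, and 600, 633 and 558 in HCC2935. The lowest HCC827 library was thus above every other library, PC9 came next, and H1975 and HCC2935 were lowest. The mean of 8652 ± 1178 CPM (SD, n = 3) was 3.52 ± 0.07 (SE) log2 units above the mean of the other lines (edgeR adjusted p = 7.99e-13), made up of 2.22 against PC9, 4.46 against H1975 and 3.86 against HCC2935. In TPM, EGFR reached 1211 ± 184 in HCC827 and ranked 97th to 122nd among all genes of its libraries, against 234 TPM in PC9, 100 in HCC2935 and 59.8 in H1975.

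Genes beside EGFR were high in HCC827 as well. The file held 25 genes within 5 Mb of the EGFR start, of which 17 were tested, EGFR included. Of the 16 neighbours, 12 were above each other line and 1 was below each, and their median log2 difference was 1.59. The neighbour closest to the start, SEC61G, encodes a subunit of the channel through which new proteins enter the endoplasmic reticulum. Its level was 1678, 2027 and 1742 CPM in HCC827, 86.4, 91.2 and 92.2 in PC9, 78.6, 58.0 and 70.4 in H1975, and 50.3, 52.3 and 54.2 in HCC2935. No other library came near the HCC827 range, and the log2 difference of 4.72 ± 0.08 (SE) was larger than that of EGFR (edgeR adjusted p = 8.91e-14). At 8417 ± 943 TPM, SEC61G ranked 5th to 10th among all genes of the HCC827 libraries, in the company of mitochondrial transcripts and GAPDH, whereas its best rank in another line was 239th.

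On the opposite side of the EGFR start from SEC61G, VOPP1 was at 2650 ± 393 CPM in HCC827 against means of 493 in PC9, 136 in H1975 and 247 in HCC2935. LANCL2 was at 507 ± 89.2 CPM against 83.1 in PC9, 45.0 in H1975 and less in HCC2935. Within 1.2 Mb of the EGFR start, a limit chosen after the values were seen, 11 of 12 neighbours were above each line, with log2 differences from 0.95 to 4.72. The exception was CHCHD2, a mitochondrial protein gene, whose mean of 1231 CPM in HCC827 set against 1056 in PC9 did not pass the test for that line. Differences from PC9 were small for several other neighbours too, 0.37 for NIPSNAP2, 0.38 for CCT6A and 0.41 for MRPS17 on the log2 scale, while the same genes were 0.93 to 2.86 above HCC2935. Of the 4 tested genes farther away, FIGNL1 was 0.83 below the mean of the other lines and below each of them. GRB10, which encodes an adaptor of growth factor receptors, was 0.59 below the mean. It was at 70.6 CPM in HCC827, above 45.1 in PC9 and below 196 in H1975 and 137 in HCC2935. COBL did not pass the test against the mean. DDC, which encodes DOPA decarboxylase, was above each line but low, at 1.75 CPM against at most 0.137. DNA copy number was not measured in these files, so its part in this pattern was not tested.

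**Figure D1:**
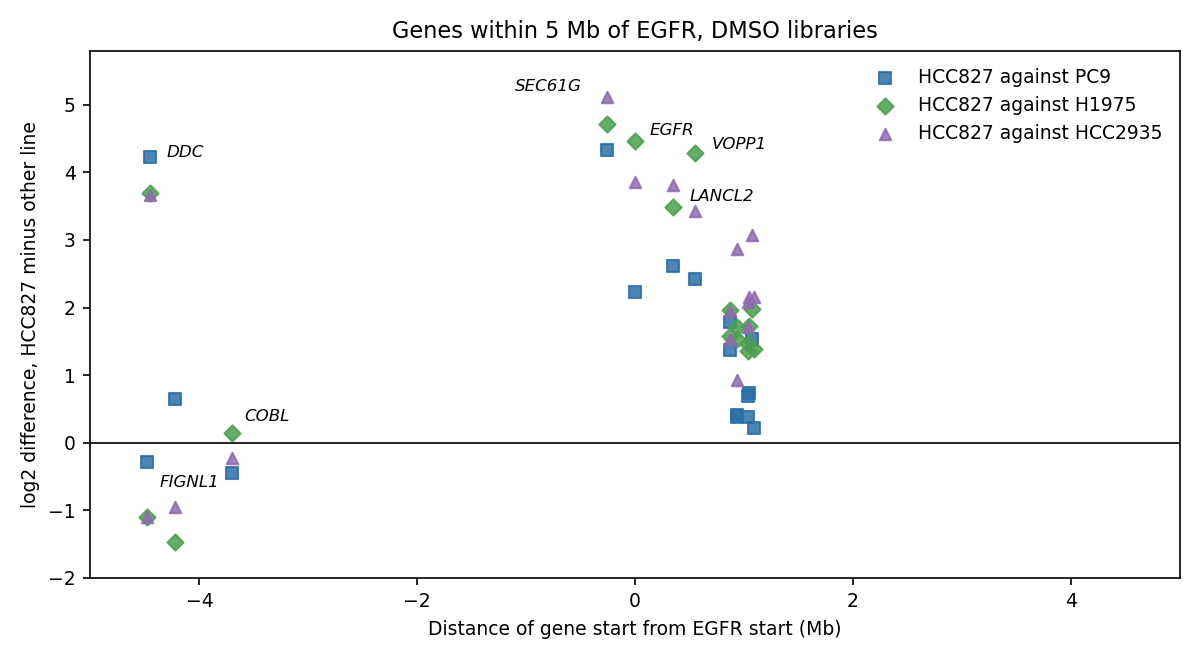
Log2 difference between HCC827 and each other line (y axis) for the 17 tested genes within 5 Mb of EGFR in the DMSO libraries, against the distance of the gene's start from the EGFR start in Mb (x axis); squares are PC9, diamonds H1975 and triangles HCC2935. Within 1.2 Mb, the points of SEC61G, EGFR, LANCL2 and VOPP1 lie highest and those near 1 Mb lie lower but above 0. Of the 4 genes beyond 3 Mb the low-level gene DDC lies high. The other 3 lie around or below 0, apart from GRB10 against PC9 at 0.64.

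Among the 14 ERBB receptors and regulators, 6 were higher than the mean of the other lines (42.9%, against 32.2% of all genes) and 4 lower (28.6%, against 28.1%). In this list 3 were above each and 2 below each, and the median log2 difference was 0.06, against 0.02 over all genes. EGFR was the only receptor of the family that stood apart by this rule. ERBB2 was at 171 CPM in HCC827, between 131 in PC9 and 130 in H1975 on one side and 342 in HCC2935 on the other, and ERBB3 was at 103 CPM against 89.0, 54.7 and 155. ERBB4 was not detected in the 3 HCC827 libraries and was at most 0.393 CPM in any line. Of the regulators, ERRFI1, an inhibitor of the EGFR kinase that the pathway itself induces, was at 426 CPM against 193 in PC9, 183 in H1975 and 94.2 in HCC2935. GAB1, a docking protein of the pathway, was at 32.6 CPM against 14.9 to 15.5. LRIG1, a transmembrane protein that restrains ERBB receptors, was at 1.39 CPM against 2.94, 29.7 and 13.0, and the adaptor gene GRB2 was at 108 CPM against 174, 156 and 134.

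Ligands of the EGF family were the group with the highest share of members above each line. Of 9 tested, 4 were above each and 1 below each, with 5 higher and 3 lower than the mean and a median log2 difference of 1.56. Epiregulin (EREG) was at 305, 330 and 304 CPM in HCC827, 5.17, 5.03 and 6.92 in PC9, 50.4, 25.6 and 37.4 in H1975, and 1.30, 0.831 and 0.323 in HCC2935. The groups did not overlap, H1975 was the nearest line, and the log2 difference was 5.79 ± 0.19 (SE; edgeR adjusted p = 3.58e-11). Amphiregulin (AREG) was at 136, 142 and 150 CPM in HCC827, 27.6, 28.6 and 30.8 in HCC2935, 21.1, 9.24 and 14.4 in H1975, and 3.14, 2.69 and 3.12 in PC9. Here too every HCC827 library was above all others, with a log2 difference of 3.71 ± 0.15 (SE; edgeR adjusted p = 3.94e-10). EREG and AREG are neighbours on chromosome 4. Betacellulin (BTC) was at 33.1 CPM against 2.86 to 4.75.

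Neuregulin 1 (NRG1), the ligand of ERBB3 and ERBB4, passed the test against each line but overlapped with H1975. It was at 45.0, 85.3 and 60.3 CPM in HCC827 and at 22.0, 50.4 and 29.2 in H1975, against means of 0.423 in PC9 and 2.91 in HCC2935. Transforming growth factor alpha (TGFA) and HBEGF went the other way against the mean. TGFA was at 44.4 CPM in HCC827, above 27.9 in H1975 and below 132 in PC9 and 219 in HCC2935, and HBEGF was at 7.48 CPM against 59.6, 12.3 and 13.7. NRG4 was below each line at 0.175 CPM against 2.23, 1.79 and 3.68. Its call against the mean of the other lines was lost without HCC827 replicate 1 (edgeR adjusted p = 0.056) or replicate 3 (0.0584). Most of the NRG4 counts of HCC2935 came from 1 library.

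**Figure D2:**
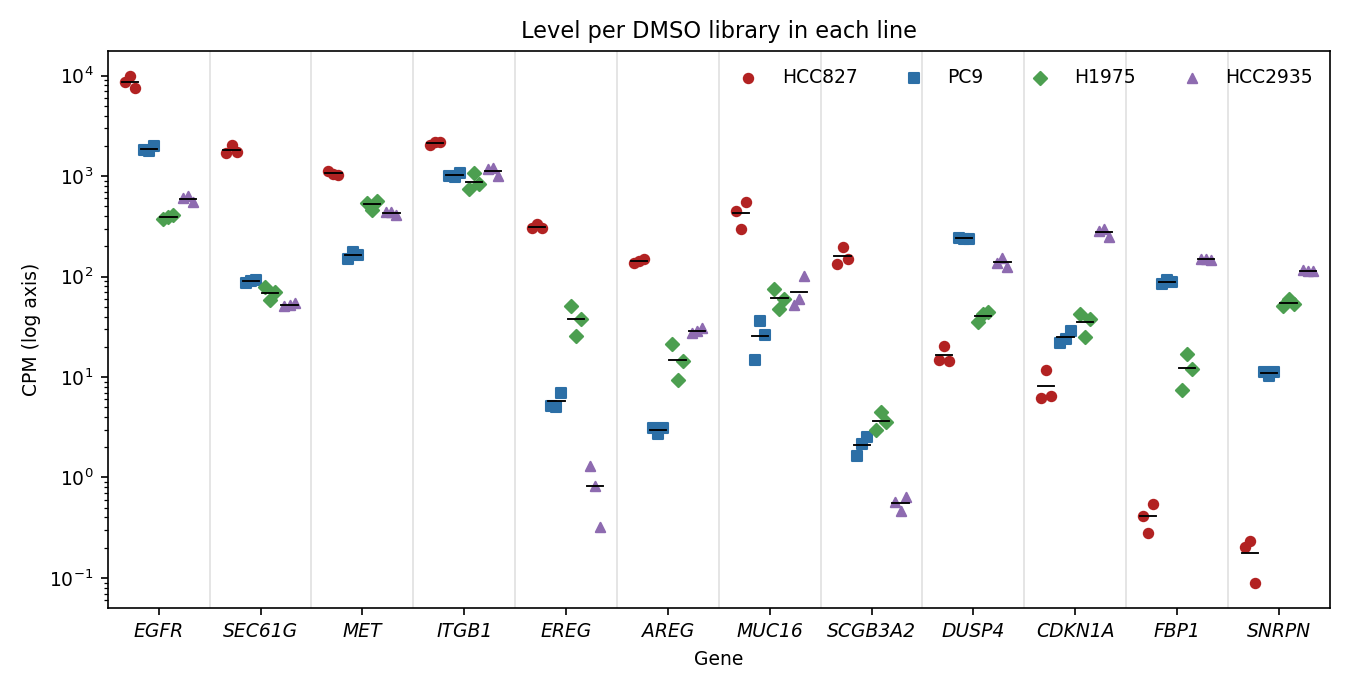
CPM on a log axis (y axis) of 12 genes (x axis) in each of the 12 DMSO libraries; a point is 1 library, the colour and shape give the line, and the bar is the mean of 3 libraries. For the 8 genes from EGFR to SCGB3A2 the HCC827 points lie above all others, and for DUSP4, CDKN1A, FBP1 and SNRPN they lie below all others.

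Feedback genes and targets of ERK did not follow EGFR as a group. Of 18 tested, 6 were higher than the mean (33.3%, against 32.2% of all genes) and 8 lower (44.4%, against 28.1%). In this list 3 were above each line and 2 below each, and the median log2 difference was -0.30. DUSP4, a phosphatase that switches off ERK, was at 14.6, 20.2 and 14.5 CPM in HCC827, 35.6, 42.5 and 44.4 in H1975, 136, 154 and 126 in HCC2935, and 244, 238 and 239 in PC9. No library of another line fell into the HCC827 range, and the log2 difference was -2.75 ± 0.13 (SE; edgeR adjusted p = 1.04e-09). DUSP6, the other classical ERK phosphatase, was at 19.9 CPM against 48.4 in PC9, 9.51 in H1975 and 156 in HCC2935. IER3, an immediate early gene, was below each line at 48.3 CPM against 63.8 to 157. FOSL1, which encodes the AP-1 subunit FRA1, was above each line at 386 ± 116 CPM against 152, 209 and 64.5, and PHLDA1 was at 235 CPM against 96.1 to 167. SPRED3 was the third gene above each, at 1.86 CPM.

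MET, which encodes the receptor of hepatocyte growth factor, was above each line. It was at 1116, 1059 and 1028 CPM in HCC827, 541, 459 and 566 in H1975, 434, 438 and 411 in HCC2935, and 151, 175 and 162 in PC9. HCC827 was above every other library, and the log2 difference was 1.69 ± 0.07 (SE; edgeR adjusted p = 3.47e-10). Of 31 receptor tyrosine kinases outside the ERBB family tested, MET included, 7 were higher and 12 lower than the mean, 2 were above each line and 3 below each, with a median of -0.38. FGFR4, a fibroblast growth factor receptor, was the other one above each, at 27.7 CPM against 14.3, 15.2 and 1.85, a log2 difference of 1.90. EPHB6, an ephrin receptor without kinase activity, was at 0.514, 0.0943 and 0.496 CPM in HCC827 against means of 187 in PC9, 2.75 in H1975 and 22.3 in HCC2935. The HCC827 libraries were the lowest of all 12. TYRO3, a relative of AXL, was at 17.3 CPM against 39.0 to 64.9, and MST1R, a relative of MET, was at 50.5 CPM against 84.9 to 127. AXL was at 18.9 CPM in HCC827 and 28.3 in HCC2935, against 219 in PC9 and 135 in H1975.

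Of the 7 genes that the study took on to functional experiments, 3 were above each line and 2 below each, and the study chose that list for reasons of drug resistance, not for levels in these libraries. Besides MET, the kinase gene SRC was at 176, 146 and 179 CPM in HCC827, 116, 129 and 118 in HCC2935, 39.8, 32.3 and 31.4 in H1975, and 30.5, 34.6 and 26.2 in PC9. HCC827 was the highest line and HCC2935 the nearest, 0.46 log2 units below. WWTR1, which encodes TAZ, a transcriptional coactivator restrained by the Hippo pathway, was at 225, 342 and 225 CPM against means of 84.2 in PC9, 157 in H1975 and 50.9 in HCC2935. KCTD5, an adaptor of the cullin 3 ubiquitin ligase, was at 49.2, 62.5 and 38.7 CPM, below the means of 73.1, 73.1 and 78.2, and EZH2, the histone H3 lysine 27 methyltransferase, was at 63.9 CPM, below 75.5 to 91.8. The differences of the last 2 were small, -0.58 and -0.35 log2 units against the mean. NF1, a brake on RAS, was at 135 CPM against 107 to 179 and did not pass the test against the mean.

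The genes with the largest positive differences were close to absent from at least 1 other line, so their levels are given in place of a fitted fold. HAVCR1, which encodes the kidney injury molecule KIM-1, was at 113, 80.5 and 118 CPM in HCC827, at 0 in all PC9 libraries, and at no more than 0.184 in any H1975 or HCC2935 library. That is at least 3860-fold higher than PC9, counting 3 counts over the 3 libraries of a group as the limit of detection, 1910-fold higher than H1975 and 781-fold higher than HCC2935. RPE65, the retinoid isomerohydrolase of the visual cycle, was at 49.3, 54.5 and 41.0 CPM. It had no counts in PC9 or H1975, which makes it at least 1790-fold and 2330-fold higher. CXCL5, a chemokine that attracts neutrophils, was at 86.7, 59.2 and 98.1 CPM, with none in PC9 and at most 0.691 in any other library.

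Others of the 12 largest were DSCAML1, a cell adhesion protein of neurons (80.2 CPM against at most 0.364), PDZK1IP1 (130 CPM against 6.62 in HCC2935 and below 0.05 in the others), TM4SF18 (180 CPM against 23.8 in H1975 and 0.576 in HCC2935) and FGB, the fibrinogen beta chain (23.5 CPM against at most 0.125). EGFLAM was at 16.1 CPM against at most 0.126. TNFRSF6B, a decoy receptor for FAS ligand, was at 67.3 CPM in HCC827 and 29.9 in H1975 and had no counts in PC9 and HCC2935, and it shares exons with a readthrough transcript of its neighbour RTEL1. MAGED4 had counts in HCC2935 at 11.6 CPM. TBC1D3G and MTRNR2L12 have near-identical copies elsewhere in the genome, so their estimates are uncertain.

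At the other end, the 12 largest negative differences belonged, by the rule for naming them, to genes that every other line expressed at 10 CPM or more. IRX3, a homeobox factor of early patterning, was at 0.0514, 0.0943 and 0.0901 CPM in HCC827 against means of 23.1 in PC9, 24.3 in H1975 and 12.4 in HCC2935. By mean CPM IRX3 was 294-fold, 309-fold and 158-fold lower. These folds are uncertain, because they rest on 3.8 summed counts in HCC827, close to the limit of detection of 3. SNRPN, the small nuclear ribonucleoprotein gene of the imprinted region of chromosome 15, was at 0.206, 0.236 and 0.0901 CPM against 10.9, 54.5 and 114. It overlaps SNURF and SNHG14 on the same strand, so the estimate may include their reads. FBP1, the rate-limiting enzyme of gluconeogenesis, was at 0.411, 0.283 and 0.541 CPM against 87.6, 12.2 and 149, which is 213-fold, 29.7-fold and 362-fold lower.

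SAMHD1, a nucleotide triphosphatase that limits the dNTP pool, was at 0.269 CPM against 17.2, 43.4 and 26.4. GNE, the enzyme that begins sialic acid synthesis, was at 0.480 CPM against 29.3 to 36.6, and S1PR3, a receptor of sphingosine 1-phosphate, was at 0.284 CPM against 10.4 to 54.5. The rest of the 12 were CYP27C1, LRP3, CACNG4, CRIP1, GPC4 and LPCAT2. All of the libraries of HCC827 were below all of the others for each of IRX3, SNRPN, FBP1, SAMHD1 and GNE.

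A count of genes on in one line and off in the rest was made with limits set after the values were seen, at least 10 CPM in 1 line and under 1 CPM in the other 3. HCC827 had 19 such genes, against 49 in PC9, 35 in H1975 and 52 in HCC2935. Besides those already named they included FGF2, the basic fibroblast growth factor, HNF4G, a nuclear receptor of gut and kidney epithelium, PAK3, a RAC effector kinase, HHLA2, a B7 family checkpoint ligand, and the laminin chain LAMC3. The reverse count, under 1 CPM in HCC827 and at least 10 in each other line, gave 16 genes, against 35, 28 and 19 for the other lines in the same order. It included LYPD3, a surface protein of squamous epithelium, DOCK11, GABBR1 and TTC28 beside those named above.

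HCC827 carried the RNA of a simple epithelium. KRT7, KRT18, KRT8 and KRT19, keratins of simple epithelium, were at 2899, 2660, 2370 and 1745 CPM in HCC827. The other lines held them too, and none of these keratins was above each line. KRT7 was at 1511 to 2443 CPM there, KRT18 at 775.5 to 2784, KRT8 at 1007 to 3937 and KRT19 at 607.7 to 2357. The defining blood cell marker PTPRC was at 0.212 CPM, PECAM1 of endothelium at 0.758, and COL3A1 and POSTN of fibroblasts at 0.0686 and 0. The collagen gene COL1A1, also listed for fibroblasts, was not near 0. It was at 18.6 CPM in HCC827, against 21.6 in PC9, 68.3 in H1975 and 62.4 in HCC2935. Of the 7 blood cell markers tested, 1 was higher than the mean, 3 were lower and none stood apart from each line (median log2 -2.01, or -1.54 with genes at 0 set to the limit of detection). The marker that was higher, CD68, is a lysosomal protein that epithelial lines also express (102 CPM against 29.8 to 95.5). Of 8 endothelial and fibroblast markers, 6 were lower, none was higher and CDH5 was below each line (median -1.45, or -1.87 with that limit).

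Within the 22 genes of epithelial adhesion and identity, 12 were higher than the mean and 1 lower, with a median of 0.54, but the picture differed between lines. HCC827 was higher than H1975 for 21 of the 22 and lower for none, whereas 7 were higher and 7 lower against PC9, and 3 higher and 10 lower against HCC2935. CDH1, which encodes E-cadherin, was at 1046 CPM in HCC827, between 324 in PC9, 248 in H1975 and 1432 in HCC2935. Only CDH3, which encodes P-cadherin, was above each, at 657, 528 and 636 CPM against 173 in PC9, 319 in H1975 and 323 in HCC2935. The 21 mesenchymal genes gave the reverse for H1975, 2 higher and 14 lower, with 12 higher and 4 lower against PC9 and 10 and 8 against HCC2935. Vimentin (VIM) was at 128 CPM in HCC827, 1654 in H1975, 25.5 in PC9 and 28.1 in HCC2935, so that its sign against a mean depended on which lines entered it. TWIST2, a transcription factor of mesenchymal cells, was the only mesenchymal gene above each line, at 6.76 CPM against 3.16 in HCC2935 and 0 in the others. Against the mean, 6 of the mesenchymal genes were higher and 11 lower (median -1.28).

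Several keratins of stratified epithelium were low in HCC827 beside at least 1 other line. Of 18 keratins tested, 4 were higher than the mean and 10 lower, and only KRT10 was below each (15.4 CPM against 21.7 to 26.1; list median -0.83). KRT5 was at 0.0514 CPM in HCC827 and 73.4 in PC9, KRT6A at 0.206 against 124 in HCC2935, and KRT13 at 0.550 against 66.7 in PC9 and 46.7 in HCC2935. H1975 was low for these too, at 0.0801, 0.0343 and 0.0694 CPM. KRT15 was at 30.1 CPM in HCC827, between 13.0 in H1975 and 91.0 in PC9.

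Lineage markers of the lung were mixed. Of 21 alveolar genes, 8 were higher than the mean and 4 lower, 3 were above each line and 1 below each (median 0.65). NKX2-1, the master regulator of lung epithelium, was at 59.5 CPM in HCC827, below 144 in HCC2935 and above 22.3 in H1975 and 0.714 in PC9, and it was no longer different from the mean once PC9 was left out (edgeR adjusted p = 0.717). SFTA2, a surfactant-associated protein, was at 56.6 CPM in HCC827, 113 in HCC2935 and 0 in the other lines. The protease NAPSA followed the same order at 53.5 and 199 CPM, with 0.392 in PC9 and 1.39 in H1975. The genes for surfactant proteins SFTPC, SFTPA1 and SFTPB were at 0, 0.110 and 0.932 CPM in HCC827. LPCAT1, which remodels surfactant phospholipid, was above each line at 1009, 913 and 1067 CPM against means of 226, 369 and 332 (log2 difference 1.72 ± 0.07 SE; edgeR adjusted p = 2.03e-10). The caveolin genes CAV1 and CAV2, known from alveolar type I cells and from many other cell types, were above each line too, at 1282 and 387 CPM. CEBPA, a factor of differentiated alveolar cells, was below each at 0.379 CPM against 2.45 to 11.4. FOXA1 was at 50.4 CPM, close to 56.1 in PC9, against 155 in HCC2935 and 0.357 in H1975, and its sign against the mean turned without H1975.

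Among 16 airway genes, 5 were higher and 5 lower (31.2% each, against 32.2% and 28.1% of all genes). In this list 1 was above each line and 1 below each (median 0.45, or 0.26 with genes at 0 set to the limit of detection). The gene above each line was SCGB3A2, a secretoglobin of club cells. It was at 134, 196 and 151 CPM in HCC827, 1.64, 2.16 and 2.55 in PC9, 2.95, 4.45 and 3.57 in H1975, and 0.569, 0.462 and 0.645 in HCC2935. No library of another line came near the HCC827 range, with a log2 difference of 6.62 ± 0.14 (SE; edgeR adjusted p = 1.07e-12). Its relatives SCGB1A1 and SCGB3A1 were at 0 in all HCC827 libraries. SLPI, an antiprotease of airway fluid, was below each at 3.05 CPM against 4.58 to 117.

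Of 12 mucins, 4 were higher (33.3%, against 32.2% of all genes) and 1 lower (8.3%, against 28.1%), and 2 were above each line (median 0.19). MUC16, which carries the CA-125 epitope, was at 446, 294 and 549 CPM in HCC827, 14.9, 35.7 and 26.4 in PC9, 75.5, 47.4 and 60.2 in H1975, and 52.0, 59.7 and 101 in HCC2935. All HCC827 libraries were above the rest, with a log2 difference of 3.16 ± 0.23 (SE; edgeR adjusted p = 9.30e-08). MUC13 was at 5.47 CPM against at most 0.0861. MUC1 was at 68.0 CPM, between 3.22 in PC9 and 209 in HCC2935.

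Markers of other lineages were mostly low. Of 10 gastrointestinal genes tested, 3 were above each line, 1 was below each, 4 were higher and 2 lower (median -0.08). VIL1, which encodes the microvillus protein villin, was at 1.66 CPM, and CDX2, an intestinal homeobox factor, was at 0.246. Of 7 neuroendocrine genes tested, 1 was above each line and 1 below each, and 1 was higher and 4 were lower (median -1.38). UCHL1, a neuronal deubiquitinase, was at 0.308, 0.189 and 0.180 CPM in HCC827 against 3.37 in H1975, 2.66 in HCC2935 and 620 in PC9. ENO2, a glycolytic enzyme also found outside neurons, was at 155 CPM against 37.0 to 45.4. INSM1 was at 0 in every library.

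HOX genes, which set positional identity along the body axis, were the list with the most members higher than the mean, 20 of 31, with 2 lower, 5 above each line, none below each and a median of 1.45. Against PC9 the counts were 11 higher and 5 lower, against H1975 19 and 3, and against HCC2935 13 and 8. HOXC10 was at 22.0, 18.9 and 17.4 CPM in HCC827 and between 1.01 and 2.70 in the other 9 libraries. HOXA10 was at 20.6 CPM against 1.43 to 6.55, HOXB9 at 21.4 against 1.15 to 8.28, HOXA5 at 3.13 and HOXB13 at 2.94. The HOXD genes were at 0.232 CPM or less. For the 13 cancer-testis antigens tested, 6 were higher, 1 was lower and 2 were above each line, and the median was 0.47 as fitted but -1.09 with genes at 0 set to the limit of detection. The helicase gene DDX43 was at 18.2 CPM against 0.275 to 2.48, and MAGEB2 was at 2.79. XAGE1A was at 117 CPM in HCC827 and 401 in H1975, and the MAGEA genes, which PC9 expressed at up to 464 CPM, stayed at 0.236 CPM or less in HCC827.

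**Figure D3:**
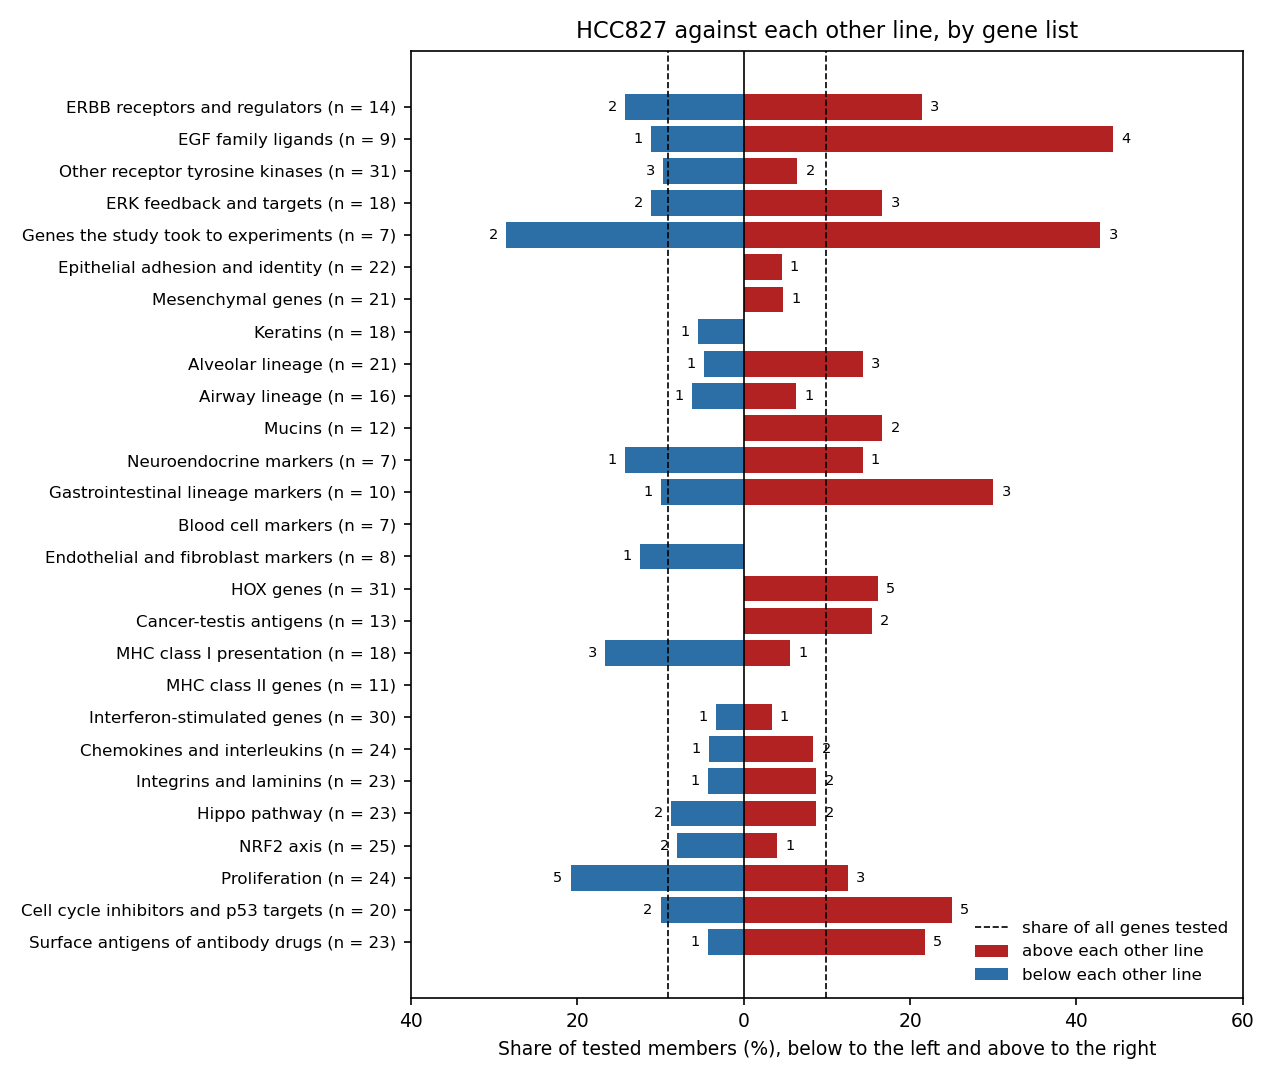
Share of the tested members of each gene list that was above each other line (red, to the right) or below each (blue, to the left) in DMSO-treated HCC827, in % (x axis), with the number of genes at each bar; the dashed lines mark the shares over all genes tested, 9.92% and 9.08%. EGF family ligands have the longest bar to the right at 4 of 9 genes, and 5 of 24 proliferation genes and 3 of 18 genes of MHC class I presentation lie to the left.

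Antigen presentation was low in HCC827 relative to HCC2935 above all. Of 18 genes of MHC class I presentation tested, 2 were higher and 13 lower than the mean, 1 was above each and 3 below each, with a median of -0.50. Against PC9 alone 10 were higher and 5 lower, against H1975 3 and 10, and against HCC2935 1 and 15. HLA-C was at 65.9, 59.6 and 71.9 CPM in HCC827, 106, 103 and 93.9 in PC9, 104, 105 and 92.3 in H1975, and 1466, 1316 and 1373 in HCC2935. HCC827 was the lowest line for it, while HLA-B (72.6 CPM) was lower than in H1975 and HCC2935 and higher than in PC9. Reads can be shared between these near-identical genes, so their estimates are uncertain. ERAP2, a peptidase that trims peptides for MHC class I, was at 20.6 CPM against 46.5, 99.8 and 211, and the chaperone gene CALR was at 698 CPM against 850 to 1071. The immunoproteasome subunit gene PSMB10 was above each line at 48.6 CPM against 29.8 to 35.5. None of 11 MHC class II genes stood apart from each line, with 4 higher and 2 lower (median 0.18, or -0.72 with that limit). The class II regulator CIITA was at 4.21 CPM against 3.71 to 17.4.

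Interferon-stimulated genes were higher than the mean in 19 of 30 cases and lower in 3, with a median of 0.98, and the counts differed between lines. Against PC9 26 were higher and 1 was lower, against H1975 7 and 12, and against HCC2935 5 and 7. IFI44 was at 22.6 CPM in HCC827, 0.134 in PC9, 57.8 in H1975 and 11.5 in HCC2935, and IFIT1 was at 13.0 CPM against 1.70, 59.9 and 15.8. Just 1 member was above each line and 1 below each. GBP2, a guanylate-binding protein, was at 25.8, 17.0 and 45.0 CPM against means of 2.63, 9.37 and 11.1. OASL was at 0.866 CPM against 2.54 to 33.4.

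Of 24 chemokines and interleukins, 14 were higher and 2 lower, 2 were above each and 1 below each (median 1.03), and against PC9 alone 17 were higher and 4 lower. CXCL5 was described above. CXCL1, which shares its receptor, was above each line as well at 5.61 CPM against 0.147 to 0.676, while CXCL8 was at 4.85 CPM, below 54.7 in HCC2935. LIF, an interleukin 6 family cytokine, was below each at 46.7 CPM against 82.5 to 133.

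Integrins and laminins, which anchor cells to the basement membrane, were counted in both directions, with 8 of 23 higher (34.8%, against 32.2% of all genes), 11 lower (47.8%, against 28.1%), 2 above each and 1 below each (median 0.13). ITGB1, the beta subunit shared by most matrix receptors, was at 2060, 2174 and 2196 CPM in HCC827, 1005, 988 and 1069 in PC9, 739, 1064 and 840 in H1975, and 1187, 1192 and 995 in HCC2935. The HCC827 libraries were all above the rest, with a log2 difference of 1.09 ± 0.09 (SE; edgeR adjusted p = 3.06e-07). ITGAV was above each line at 257 CPM against 107 to 188, and ITGB5 was below each at 64.8 CPM against 126 to 361. LAMB1 and LAMA5 were at 486 and 1281 CPM in HCC827, with H1975 lowest at 26.4 and 207.

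The Hippo pathway restrains the coactivators YAP1 and WWTR1, whose target genes include CCN1, CCN2 and ANKRD1. Of its 23 genes, 8 were higher (34.8%, against 32.2% of all genes) and 6 lower (26.1%, against 28.1%), and 2 were above each and 2 below each (median -0.13). CCN1, a matrix-associated signalling protein, was at 1118, 1831 and 840 CPM in HCC827, 217, 141 and 155 in PC9, 110, 218 and 180 in H1975, and 192, 258 and 206 in HCC2935. The HCC827 libraries were above all others but spread widely (SD 511), and the log2 difference was 2.77 ± 0.21 (SE; edgeR adjusted p = 1.07e-07). The other target genes did not move with it. ANKRD1 was below each line by the test at 7.06 CPM against 43.5, 19.6 and 21.2, with an H1975 library at 4.99 inside the HCC827 range, and CCN2 was at 7.37 CPM against 2.92 to 40.5. TEAD2, one of the factors that YAP1 and WWTR1 bind, was below each at 16.4 CPM against 26.0 to 57.8, and YAP1 was at 227 CPM, close to 230 in PC9 and above 132 and 142.

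The NRF2 axis of the oxidative stress response was lower mainly against PC9. Of 25 genes, 2 were higher and 15 lower than the mean, 1 was above each and 2 below each (median -0.46). The counts were 1 higher and 21 lower against PC9, 11 and 5 against H1975, and 6 and 12 against HCC2935. AKR1C1 and AKR1C2, near-identical aldo-keto reductases between which reads can be split, were at 0.209 and 0.409 CPM against 55.0 and 103 in PC9 and 0.776 to 1.94 in the other lines. UGDH, which makes UDP-glucuronate, was above each line at 109 CPM against 64.7 to 75.4. The adaptor gene KEAP1, the brake on NRF2, was at 60.3 CPM against 176, 135 and 70.4.

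Cell cycle genes were called in both directions, as genes in general were. Of 24 proliferation genes, 6 were higher than the mean (25.0%, against 32.2% of all genes) and 9 lower (37.5%, against 28.1%). In this list 3 were above each line and 5 below each (median -0.13). MKI67 was at 483 CPM, level with 460 in PC9 and 482 in HCC2935 and below 683 in H1975. The 3 above each line were TOP2A, which untangles DNA, and the mitotic genes CDC20 and BUB1. TOP2A was at 1180, 1095 and 1260 CPM against means of 429, 774 and 675, CDC20 was at 432 CPM against 79.5 to 288, and BUB1 was at 214 CPM against 68.9 to 157. The 5 below each were the replicative helicase genes MCM5 and MCM3, RRM2, which makes deoxynucleotides, cyclin E1 (CCNE1) and the transcription factor gene E2F1. MCM5 was at 90.0, 104 and 65.1 CPM against 213, 173 and 368, MCM3 at 139 CPM against 199 to 419, RRM2 at 218 against 313 to 486, CCNE1 at 9.69 against 19.1 to 33.8, and E2F1 at 38.3 against 57.4 to 77.3. Other genes of the same roles in the list were neither above nor below each line, among them MCM2, MCM4, MCM6, MCM7, CDC6 and PCNA of replication and CCNB1, CCNB2, AURKA, AURKB and PLK1 of mitosis.

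Of 20 cell cycle inhibitors and p53 targets, 7 were higher and 6 lower, with 5 above each line and 2 below each (median 0.02). CDKN2A, which encodes the CDK4 and CDK6 inhibitor p16, was at 209, 177 and 231 CPM in HCC827, 93.5, 101 and 90.4 in PC9, 28.8, 14.7 and 24.8 in H1975, and 0.447, 0.277 and 0.323 in HCC2935. Every HCC827 library was above all others. Its neighbour CDKN2B was at 36.4 CPM against at most 15.3 in PC9 and H1975 and 0.0579 in HCC2935. CDKN1B was at 79.7 CPM against 32.7 to 56.9, TP53INP1 at 16.7 against 0.393 to 6.09, and the ribonucleotide reductase gene RRM2B at 66.4 against at most 29.4. CDKN1A, which encodes p21, went the other way at 6.22, 11.7 and 6.53 CPM against 24.9, 34.9 and 277, and TP53I3 was at 15.8 CPM against 21.4 to 95.3.

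Of 23 surface antigens of antibody drugs, 7 were higher (30.4%, against 32.2% of all genes) and 6 lower (26.1%, against 28.1%). In this list 5 were above each line (EGFR, MET, MUC16, F3 and FOLR1) and LY6E was below each (median 0.07). Tissue factor (F3) was at 557, 1071 and 580 CPM against 391, 59.5 and 183, and the folate receptor gene FOLR1 was at 9.90 CPM against 2.25 in HCC2935 and at most 0.122 in the others. LY6E was at 75.5 CPM against 143 to 212.

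The genes that set HCC827 apart were not spread evenly over the chromosomes. The share above each line was 22.8% on chromosome X, 21.3% on chromosome 21, 20% on chromosome 4, 19.6% on chromosome 8, 19.5% on chromosome 12 and 15.6% on chromosome 1, against 9.92% over all genes. On chromosome 12 just 1.54% were below each line, and the median log2 difference of its 780 genes was 0.51. Chromosome 22 stood at the other end, with 35.8% of 371 genes below each line, 2.16% above each and a median of -0.76. Chromosome 16 followed with 23.3% below each, and chromosome 10 with 16.5%. Genes on 1 chromosome are not independent of each other, and these shares are given without a test.

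**Figure D4:**
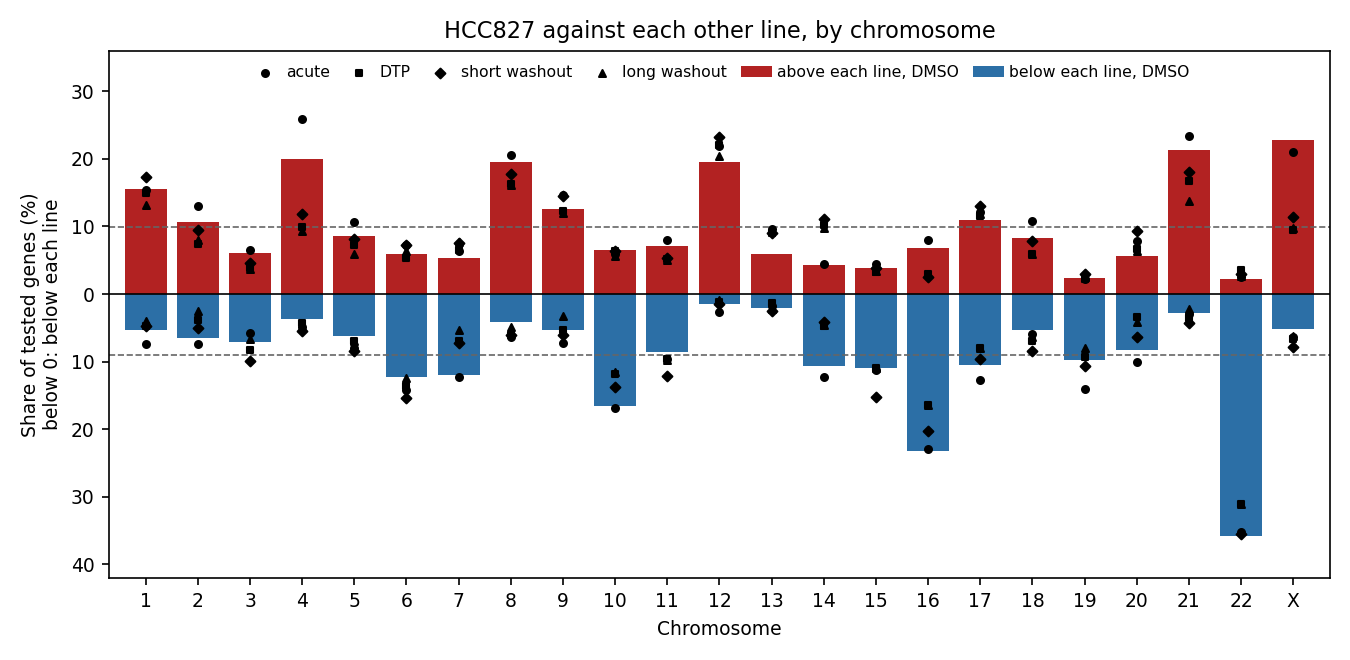
Share of tested genes per chromosome (x axis) that was above each other line (red bars, upward) or below each (blue bars, downward) in DMSO-treated HCC827, in % (y axis), with symbols for the same shares in the acute, DTP, short washout and long washout arms; dashed lines mark the shares over all genes, 9.92% and 9.08%. Chromosome 22 has the deepest bar at 35.8%, and its symbols lie between 31% and 35.5%.

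In windows of 5 Mb with at least 10 tested genes, 16 of 464 had a median log2 difference above 1 and 2 had one below -1. The 5 highest besides that of EGFR (1.65) lay on chromosomes 9 and 8. In the window chr9:20000001-25000000 (GRCh38) the median was 2.92 and 7 of 10 genes were above each line, MTAP, CDKN2A and CDKN2B among them. This rested largely on HCC2935, for which the median was 6.31, against 1.28 for PC9 and 1.49 for H1975. MTAP, the enzyme that salvages methylthioadenosine, was at 148 CPM in HCC827, 54.5 in PC9, 40.3 in H1975 and 0.676 in HCC2935.

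The windows chr8:70000001-75000000 and chr8:80000001-85000000 had medians of 2.53 and 2.52, with 13 of 19 and 11 of 13 genes above each line. The excess there was present against all 3 lines, with medians of 2.06, 1.76 and 2.21 in the first window against PC9, H1975 and HCC2935. RPL7, a protein of the large ribosomal subunit, was at 3929, 3992 and 4036 CPM in HCC827 against means of 439, 740 and 158, and at 7741 ± 95.8 TPM it ranked 7th to 11th in the HCC827 libraries. RPL7 has many processed copies in the genome that can share its reads, so its estimate is uncertain. UBE2W, a ubiquitin-conjugating enzyme, was at 201 CPM against 9.27, 31.4 and 17.3. In the window chr8:130000001-135000000 the median was 2.08, and HHLA1 was at 121 CPM against 7.08, 7.89 and 0.400. The windows of the stretch chr1:50000001-80000000 had medians between 1.06 and 1.44, and this stretch holds RPE65. The lowest window with many called genes, chr10:5000001-10000000, had a median of -1.11 with 10 of 18 genes below each line. One of them, NET1, an exchange factor for small GTPases, was at 43.9 CPM against 301, 74.0 and 295.

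The treated arms show how far the differences of untreated HCC827 were present in libraries that the comparison had not used. They come from the same 4 lines and are no further cell lines. The long washout differed in length between the lines, so in that arm line and time off drug cannot be told apart. In the acute arm 10.8% of genes were above each line and 10.1% below each. The shares were 8.65% and 7.67% in DTPs, 9.81% and 8.97% after the short washout, and 8.48% and 7.00% after the long washout. Of the genes above each line in DMSO and tested in both arms, 1013 of 1506 (67.3%) were also above each in the acute arm, 668 of 1496 (44.7%) in DTPs, 764 of 1493 (51.2%) after the short and 688 of 1502 (45.8%) after the long washout. For those below each the shares were 62.7%, 42.2%, 51.4% and 44.1%. In all 5 arms 489 genes were above each line and 392 below each.

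EGFR was among the 489. Its mean in HCC827 was 7637 CPM in the acute arm, 5453 in DTPs, 5685 after the short and 5151 after the long washout, between 2.95 and 3.87 log2 units above the mean of the other lines. Of its neighbours, 10 to 12 of 15 or 16 tested were above each line in the treated arms, with medians from 1.53 to 1.78, and SEC61G was 3.80 to 3.92 log2 units above the mean. EREG, NRG1, MET, WWTR1, CCN1, SCGB3A2, CXCL5, HAVCR1, RPE65, LPCAT1, ITGB1 and HOXC10 were above each line in every arm. EREG in HCC827 was at 113, 80.2, 92.3 and 98.0 CPM in the 4 treated arms in the same order, against at most 8.81 in any other line. Among the genes below each line, SNRPN, FBP1, SAMHD1, GNE, IRX3, EPHB6, UCHL1, KCTD5 and HLA-C were below each in every arm. On chromosome 22, 35.2%, 31.1%, 35.5% and 31% of genes were below each, and on chromosome 12, 21.9%, 22.1%, 23.2% and 20.4% were above each.

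Other calls made in DMSO were missing in some or all of the treated arms. MUC16 was above each line in none of the treated arms. Its mean in PC9 was 825 CPM in the acute arm and 1584 in DTPs, against 738 and 212 in HCC827. DUSP4 in DTPs was at 43.1 CPM in HCC827, beside 47.8 in PC9, 48.8 in HCC2935 and 12.8 in H1975. In DMSO its means were 16.44 CPM in HCC827, 240 in PC9, 138.3 in HCC2935 and 40.85 in H1975. ERRFI1 was above each in none of the treated arms. It was at 182 CPM in HCC827 and 141 in H1975 in the acute arm, and H1975 was the higher in DTPs (247 against 172 CPM), after the short washout (163 against 140) and after the long washout (340 against 185). CDH3 in DTPs was at 204 CPM against 200 to 320. AREG and SRC were above each line in the acute and long washout arms, but not in DTPs or after the short washout, where HCC2935 came close. TOP2A was above each in none of the treated arms. On chromosome 4 the share above each line was 20% in DMSO, 25.9% in the acute arm, 9.87% in DTPs, and 11.9% and 9.29% after the short and long washout. On chromosome X it was 22.8%, 21%, 9.47%, 11.4% and 9.8% in the same order. These comparisons of arms are between counts of calls, and the change of the line difference between arms was not tested.

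**Figure D5:**
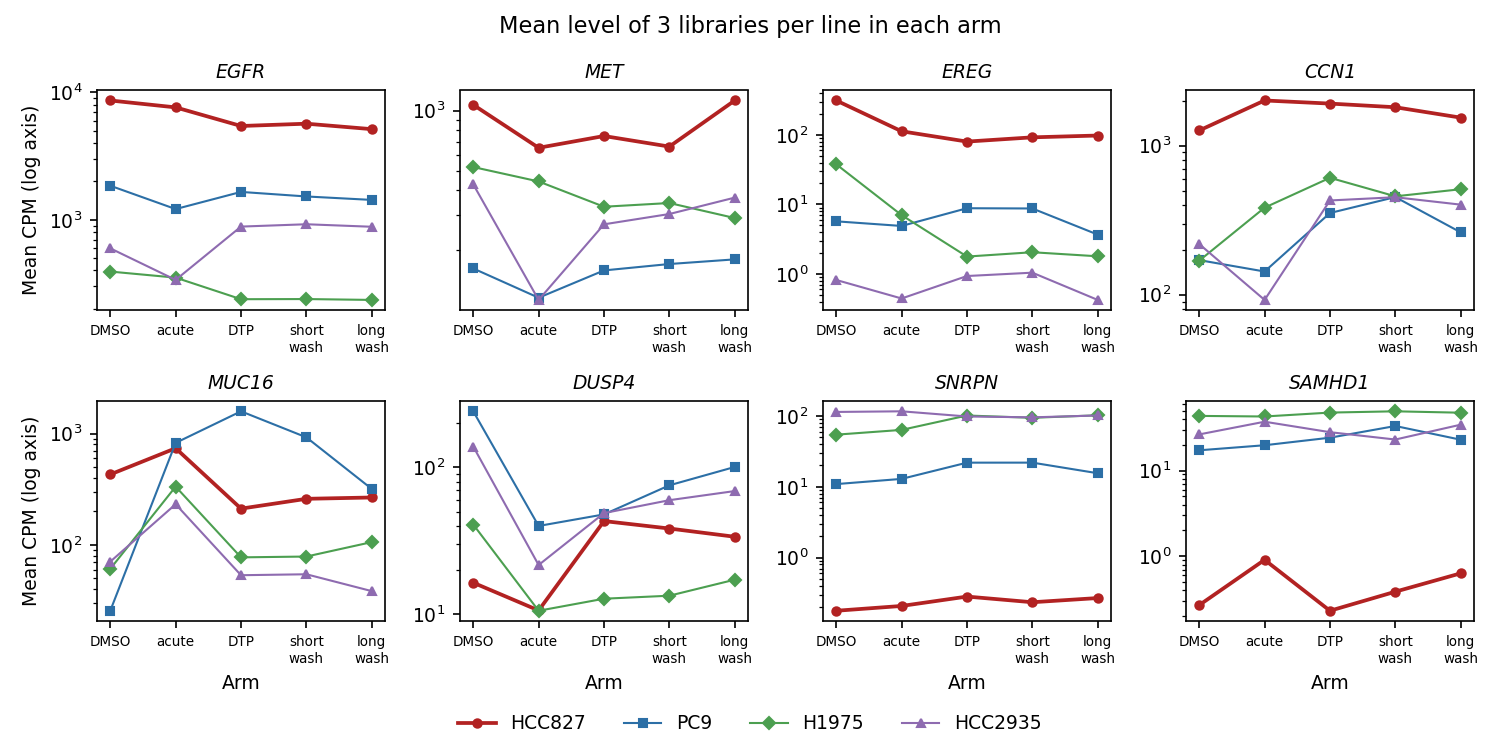
Mean CPM of 3 libraries per line on a log axis (y axis) in the 5 arms (x axis; DMSO, acute osimertinib, DTP, short and long washout) for 8 genes; each line colour is a cell line, HCC827 in thick red, and spread is not drawn. The HCC827 points of EGFR, MET, EREG and CCN1 lie above all other lines in all arms and those of SNRPN and SAMHD1 below. MUC16 in PC9 passes HCC827 from the acute arm on, and DUSP4 in DTPs lies at similar levels in HCC827, PC9 and HCC2935.

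Of the 19 genes on in untreated HCC827 only, 14 met the same limits in the acute arm, 12 in DTPs, 11 after the short and 12 after the long washout. HCC827 itself still held 15, 17, 17 and 17 of them at 10 CPM or more. For the 16 genes off in HCC827 only, 9, 4, 4 and 3 met the limits, and 12, 8, 9 and 8 were still under 1 CPM in HCC827.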

How the data were processed

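RNA of 60 cultures of 4 cell lines was sequenced from poly(A)-selected libraries (paired-end 150, HiSeq4000). The submitters' processing notes name HISAT2 2.1.0, Salmon 0.8.2 and hg38, and the annotation and strand setting are not given in the sources used here. The authors deposited estimated counts per gene and log2 TPM with an offset of 0.01 (the log2 TPM serve for ranks and 1 alternative only). The growth protocol names 1 line for all samples, so lines were taken from the titles. Estimated counts were rounded and the 12 DMSO libraries fitted with edgeR 4.0.16 (R 4.3.3; TMM, filterByExpr with a minimum count of 10, glmQLFit and glmQLFTest, 1 mean per line); of 19712 genes 15214 were tested, and p-values were adjusted by Benjamini-Hochberg over all of them, with calls at 0.05. Each treated arm was fitted the same way. "Above each" and "below each" need all 3 contrasts against single lines to pass with 1 sign. A limit of detection of 3 counts per group (0.0207 to 0.0477 CPM) was used where a line was at 0; such limits cover counting error only. Positions come from GENCODE 29 by symbol (19342 genes placed). Named genes were the 12 largest differences each way among genes above or below each line with at least 10 CPM, EGFR, MET, the 7 experimental genes, and from each list the first 2 members and up to 4 that were above or below each; the neighbours of EGFR, the chromosome windows and the list examples beyond these were named after their values were seen. The members and lists were chosen with earlier results of these data known. On simulated counts with 14912 genes tested, the contrast against the mean recovered 97% of 4-fold and 80% of 2-fold changes, with 3.8% of calls false. The rule of being above or below each line recovered 93% and 68%. Only 200 genes were changed in that simulation, and all others had the same mean in every line. The data hold far more differences, so the false share need not carry over to them. Genes of the Y chromosome, XIST, TSIX and some other genes are not reported. Alternatives were RLE and library-size scaling, DESeq2 1.42.0, other filters, limma 3.58.1 on log2 TPM, a replicate block, a threshold of 0.01, all 60 libraries in 1 fit, thinning to the smallest library, and leaving out a library or a line.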

Additional observations from a re-analysis of the deposited data

How the results depend on the processing

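The number of genes higher or lower than the mean of the other lines, and above or below each, stayed within 1.5 times the reported count under every alternative except leaving out a line, which leaves fewer contrasts to pass: without PC9, H1975 or HCC2935, 2308, 2493 and 2268 genes were above each line left and 2115, 2480 and 2178 below each. Leaving out 1 library at a time gave 4495 to 4989 genes higher, 3866 to 4329 lower, 1381 to 1538 above each and 1252 to 1430 below each. The share of calls that were higher was 53.4%, against 49.6% with library-size scaling and 44.3% with limma on log2 TPM. The main fit did not pair libraries by replicate number. Correlations of same-numbered deviations ran from -0.21 to 0.16, with 4 of 9 above 0.1. Differently numbered libraries were not compared, so whether replicate numbers share a batch was not tested. With the replicate block 4839 genes were higher, 4254 lower, 1480 above each and 1386 below each.

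Of 3131 values of 128 named genes under alternatives, 3065 kept direction and side of the threshold, 14 lost and 22 gained a call, and 30 changed sign. With limma on log2 TPM the difference of PTPRC was -0.19, and after thinning that of VWF was 0.16. On leaving out 1 library at a time the difference ran from -0.21 to 0.0045 for NF1, -0.19 to 0.036 for ERBB2, -1.05 to 0.041 for EGF, -4.70 to 0.084 for MUC2, -1.35 to 0.27 for MAGEA3, -0.77 to 0.0067 for CEACAM5 and -0.54 to 0.11 for VWF. Without PC9 the differences were -0.75 (VIM), -0.0035 (KRT4), -0.078 (MUC1), -0.70 (PTPRC), 0.054 (PECAM1), -0.46 (IFI6) and -0.94 (IFI27). Without H1975 they were -2.12 (KRT4), -0.88 (FOXA1) and 0.042 (MKI67). Without HCC2935 they were 0.39 (ERBB2), 0.21 (EGF), 0.027 (NF1), -0.68 (VIM), -0.0036 (PTPRC), 1.11 (VWF), 0.39 (HLA-B) and 0.98 (CEACAM5). The cause of these changes was not tested beyond which line was left out. The call of MUC1 was lost without HCC827 replicate 3 (edgeR adjusted p = 0.0528), that of IFI6 without HCC827 replicate 1 (0.0537), and that of PECAM1 without HCC827 replicate 2 (0.0665) or HCC2935 replicate 3 (0.101).

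With 3 libraries a line, 2-fold differences are found less often than 4-fold ones, and line and depth cannot be told apart for PC9 and H1975 except by thinning to the smallest library.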
